A study of Mus musculus with 14 samples.

Results

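The genes described here are 35 enzymes and regulators of cholesterol and fatty acid synthesis, taken by gene symbol from a fixed list and read in thymic natural killer T (NKT) cells of mice given dexamethasone. Of the 35, 28 were listed in the deposited table, and 22 of those held enough counts to be tested among 7965 tested genes of 10303 listed. A further 6 were listed but too low to test (Ggps1, Insig1, Stard4, Fasn, Scd1 and Acsl4). The remaining 7, Sqle, Idi1, Fdft1, Lss, Cyp51, Hsd17b7 and Fads2, are not listed there and are not analysed here.

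NKT cells are T cells that recognise lipids held by the CD1d protein. The cells were sorted from thymi of age-matched wild-type male mice injected into the peritoneum with the synthetic glucocorticoid dexamethasone (200 ug for every 10 g of body weight) or with a vehicle of 8% ethanol. The groups were 4 libraries taken 3 d after dexamethasone, 5 libraries taken 18 h after dexamethasone and 5 vehicle libraries taken at 3 d, so the 18 h cells have no vehicle of their own time. Whether a replicate is 1 mouse or a pool is not labelled, and p-values therefore measure only the spread between these libraries. Sequencing was by bulk MARS-seq, which counts transcript 3′ ends, so levels are compared between libraries for 1 gene and never between genes. In such bulk libraries, fewer cells of a type and less RNA per cell cannot be told apart.

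Cholesterol is built from acetyl-CoA through mevalonate and the isoprenoids to squalene and then to lanosterol and the later sterols, while acetyl-CoA carboxylase and fatty acid synthase start the fatty acids, which elongases and desaturases then modify. The SREBP transcription factors, carried by the escort protein Scap and held back by the Insig proteins when sterol is plentiful, are known to switch on most of these enzymes. The nuclear receptors called LXR sense oxysterols and switch on cholesterol export. Dividing T cells are known to need both branches for new membrane.

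Libraries held 977037 to 2203273 counts, and 1 count was worth 0.471 to 1.11 CPM, the level scaled to library size used throughout. The glucocorticoid-induced genes Tsc22d3 and Fkbp5 checked the treatment: all 6 genes of that list rose at both times, with Tsc22d3 at 339 to 427 CPM at 3 d, 160 to 549 CPM at 18 h and 22.3 to 42.4 CPM in vehicle. Zbtb16, the factor that defines NKT cells, was at 13.95 to 26.6 CPM at 3 d, 18.8 to 77.3 CPM at 18 h and 41.7 to 81.7 CPM in vehicle, and it and the other NKT and T cell genes of its list, 8 in all, summed to 2854 to 3516 CPM at 3 d, 2324 to 4766 CPM at 18 h and 3514 to 5190 CPM in vehicle. Cd8b1, a thymocyte gene, stood at 1008 and 648 CPM in 18 h replicates 2 and 3, against 9.43 to 27.5 CPM in the other 18 h libraries. It was at 11.0 to 21.3 CPM at 3 d and 27.0 to 71.2 CPM in vehicle. Summed, the 11 listed thymocyte genes stood at 147 to 194 CPM at 3 d, 207 to 1626 CPM at 18 h and 282 to 554 CPM in vehicle. Of the 7 tested thymocyte genes, 0 rose and 3 fell at 3 d, and 2 rose and 2 fell at 18 h. The 14 listed mitosis genes all fell at 3 d and 7 of them fell at 18 h, and their sums were 96.7 to 151 CPM at 3 d, 281 to 730 CPM at 18 h and 765 to 1120 CPM in vehicle. The 11 listed macrophage genes summed to 2324 to 8104 CPM at 3 d, 913 to 2331 CPM at 18 h and 964 to 1851 CPM in vehicle. For the 3 listed natural killer cell genes the sums were 282 to 621 CPM at 3 d, 26.5 to 187 CPM at 18 h and 247 to 321 CPM in vehicle. The 2 listed B cell genes and the 3 listed epithelial and stromal genes reached at most 14.6 and 7.54 CPM in any library.

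The promoters of the members were read first, because SREBP binding elements near the start site are a known feature of the pathway. RefSeq (GRCm38.p6) gave 30 promoters of 300 bases, 250 before and 50 after the start, for 23 of the 28 listed members. The letters TCACNCCAC, a form of the sterol response element, were searched on both strands and found in 1.24% of 32851 promoters and in the promoter of 1 of the 23 members, that of Hmgcs1. CCAAT, the letters bound by NF-Y, a known partner of SREBP, stood in promoters of 18 of the 23 members, and GGGCGG, the GC box bound by Sp1, in those of 16. Over all promoters these letters occurred in 37.4% and 35.7%. Counted by promoter, CCAAT stood in 19 and GGGCGG in 20 of the members' 30. ACANNNTGT, part of the palindrome bound by the glucocorticoid receptor, stood in 6.85% of all promoters and in that of 1 member, Acat2. A match describes letters and not a bound site, and a missing match says only that these letters are not in this window. The promoters of the 4 members with the smallest adjusted p against vehicle for which RefSeq gave one are shown, and that of Hmgcs1 was added, after the search, as the only one with the sterol response element letters. The window given for Acsl5 belongs to a start inside the gene, whose own first base is chr19:55251938. Capitals mark the matches to these 4 motifs on either strand, none of which overlap, and each sequence reads 5′ to 3′ along its gene.
Mvd, chr8:122443373-122443672, minus strand: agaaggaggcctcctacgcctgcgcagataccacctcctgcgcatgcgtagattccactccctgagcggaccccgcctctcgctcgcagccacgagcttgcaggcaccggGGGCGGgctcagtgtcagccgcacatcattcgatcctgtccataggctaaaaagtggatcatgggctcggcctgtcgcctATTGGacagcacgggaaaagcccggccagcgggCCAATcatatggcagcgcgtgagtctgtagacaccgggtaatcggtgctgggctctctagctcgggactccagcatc
Sc5d, chr9:42264251-42264550, minus strand: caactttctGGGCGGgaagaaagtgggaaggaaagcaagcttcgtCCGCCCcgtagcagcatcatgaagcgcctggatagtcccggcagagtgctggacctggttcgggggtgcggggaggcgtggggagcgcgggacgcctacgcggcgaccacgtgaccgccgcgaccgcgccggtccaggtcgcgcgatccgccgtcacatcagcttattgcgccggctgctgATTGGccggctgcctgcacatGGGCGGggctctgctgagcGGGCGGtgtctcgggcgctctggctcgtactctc
Acsl5, chr19:55253119-55253418, plus strand: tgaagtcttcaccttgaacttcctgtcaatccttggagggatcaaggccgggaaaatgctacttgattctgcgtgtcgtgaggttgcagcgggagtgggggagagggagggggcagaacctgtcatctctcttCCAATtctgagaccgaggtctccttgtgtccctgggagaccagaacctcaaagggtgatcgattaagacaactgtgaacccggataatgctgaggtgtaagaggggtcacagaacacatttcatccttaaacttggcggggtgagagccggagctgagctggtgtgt
Acat2, chr17:12960676-12960975, minus strand: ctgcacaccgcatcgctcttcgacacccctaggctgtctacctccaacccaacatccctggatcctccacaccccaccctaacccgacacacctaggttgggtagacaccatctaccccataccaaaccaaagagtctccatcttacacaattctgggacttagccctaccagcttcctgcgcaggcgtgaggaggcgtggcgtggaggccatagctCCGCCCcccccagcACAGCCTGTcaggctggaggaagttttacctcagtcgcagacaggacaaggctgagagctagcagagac
Hmgcs1, chr13:119690101-119690400, plus strand: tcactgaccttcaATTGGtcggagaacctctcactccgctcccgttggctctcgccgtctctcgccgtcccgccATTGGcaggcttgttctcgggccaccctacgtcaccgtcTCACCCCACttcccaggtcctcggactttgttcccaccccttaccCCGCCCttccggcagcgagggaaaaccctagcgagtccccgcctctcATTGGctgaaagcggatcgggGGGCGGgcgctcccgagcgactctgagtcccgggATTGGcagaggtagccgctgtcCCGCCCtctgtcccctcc

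The comparison of 3 d dexamethasone with vehicle asked how the pathway stood at the later time. Of the 22 tested members, 1 rose and 4 fell: Sc5d rose, and Acat2, Fdps, Ebp and Acsl5 fell, while 17 were not called. That is 22.7% of the members, near the 25.9% of all tested genes that passed the same test (12.1% higher and 13.8% lower). The members' median log2 fold change was -0.11, against 0.03 over all tested genes, and the 3 d and vehicle libraries did not overlap for 7 of the 22 members, the 5 called and Pmvk and Acly, and for 21.6% of all tested genes. Calls are at an adjusted p below 0.05 in edgeR's quasi-likelihood test with Benjamini-Hochberg adjustment over all tested genes.

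The comparison of 18 h dexamethasone with vehicle asked about the acute response. Here 4 members rose, Mvd, Pmvk, Scd2 and Elovl5, and 3 fell, Acat2, Acsl5 and Elovl1, while 15 were not called. The share of 31.8% was again near that of all tested genes, 34.3% (17.0% higher and 17.3% lower), and the median log2 fold change was -0.12 for the members and 0.01 over all genes. Libraries at 18 h and vehicle libraries did not overlap for 2 of the 22 members, Mvd and Srebf2, and for 19.8% of all tested genes. Only Acat2 and Acsl5 were called at both times, and both fell at both. The comparisons share the 5 vehicle libraries, so their values are given side by side and are not independent.

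Between the times, Acaca was higher and Pmvk lower at 3 d than at 18 h, and 20 members were not called. The share of 9.09% compares with 11.7% of all tested genes (4.78% higher and 6.91% lower). The members' median log2 difference was -0.23, against -0.01 over all genes. Both called members were also the only ones whose 3 d and 18 h libraries did not overlap, as was the case for 11.1% of all tested genes.

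**Figure D1:**
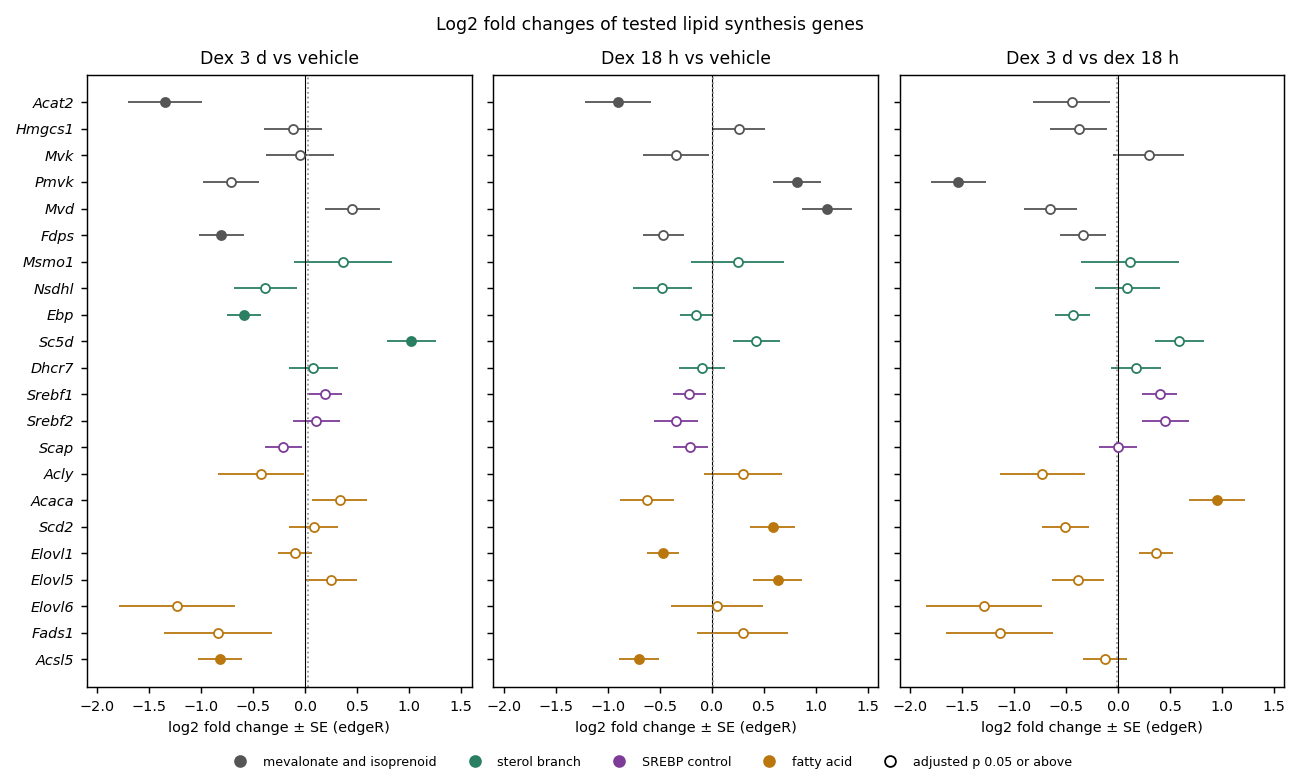
Log2 fold changes ± standard error (edgeR) of the 22 tested members in each comparison, coloured by role, with filled points at an adjusted p below 0.05 and a dotted line at the median of all tested genes. Acat2 and Acsl5 lie left of 0 against vehicle at both times, Sc5d is the filled point on the right at 3 d (1.02), and Mvd and Pmvk are filled on the right at 18 h (1.11 and 0.82).

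Acat2 makes acetoacetyl-CoA from acetyl-CoA, the first step towards mevalonate, and its gene lies at chr17:12942890-12960747. It was at 12.0, 3.79, 8.47 and 14.5 CPM at 3 d, at 10.9, 15.4, 12.5, 9.90 and 19.9 CPM at 18 h, and at 18.8, 46.7, 16.3, 27.0 and 23.1 CPM in vehicle. Every 3 d library was below every vehicle library, whereas at 18 h replicate 5 reached into the vehicle range. Its mean was 9.67 ± 4.63 CPM at 3 d and 26.4 ± 12.1 CPM in vehicle (SD, n = 4 and 5), a log2 fold change of -1.35 ± 0.35 (SE, edgeR adjusted p = 0.00822). At 18 h it fell by 0.90 ± 0.31 on the log2 scale (edgeR adjusted p = 0.0311). The 18 h call was lost when 18 h replicate 1, 3 or 4 or vehicle replicate 2 or 4 was left out, with a log2 fold change of -0.64 (edgeR adjusted p = 0.117) without vehicle replicate 2. Without 18 h replicates 2 and 3, the libraries with high Cd8b1, it was -0.91 ± 0.38 (edgeR adjusted p = 0.0788). Of the 50-base stretches in the last 500 bases of its transcripts, 20.9% also occur in its neighbour family member Acat3, so its counts are uncertain to that extent.

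Hmgcs1, which joins acetoacetyl-CoA with a further acetyl-CoA, carried the sterol response element letters printed above. Its levels were 11.0 to 15.9 CPM at 3 d, 12.5 to 23.1 CPM at 18 h and 9.38 to 18.9 CPM in vehicle. The groups overlapped, and neither comparison with vehicle was called (log2 fold changes -0.12 ± 0.28 at 3 d and 0.26 ± 0.25 at 18 h). Mvk, the kinase that first phosphorylates mevalonate, was at 7.97 to 28.4, 8.83 to 19.2 and 11.6 to 21.6 CPM at 3 d, at 18 h and in vehicle, and was not called either.

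Pmvk and Mvd, which carry out the next phosphorylation and the decarboxylation to isopentenyl diphosphate, both rose at 18 h. Pmvk (chr3:89454541-89469013) was at 22.6, 20.9, 16.1 and 22.0 CPM at 3 d, at 83.6, 34.2, 55.9, 36.8 and 88.6 CPM at 18 h, and at 34.0, 34.5, 35.6, 30.4 and 33.9 CPM in vehicle. Replicates 1, 3 and 5 at 18 h were high, replicates 2 and 4 were close to vehicle, and all 3 d libraries lay below all vehicle libraries. Macrophage genes summed to 2331, 1999 and 2310 CPM in 18 h replicates 1, 3 and 5 and to 1437 and 913 CPM in replicates 2 and 4. The same genes summed to 2324 to 8104 CPM at 3 d, where all Pmvk libraries were below vehicle. The part of macrophage RNA in the 18 h rise of Pmvk was not tested. Against vehicle the log2 fold change was -0.71 ± 0.27 at 3 d (edgeR adjusted p = 0.0561, not called) and 0.82 ± 0.23 at 18 h (edgeR adjusted p = 0.00927). The 3 d value was called under 8 other settings, among them the fit with only the 3 d and vehicle libraries (-0.71 ± 0.21, edgeR adjusted p = 0.0135) and the fits without 18 h replicate 1, 2, 4 or 5. The difference between 3 d and 18 h was -1.54 ± 0.27 on the log2 scale (edgeR adjusted p = 0.000489), the smallest adjusted p of any member in any of the 3 comparisons.

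Mvd (chr8:122433601-122443422) was at 27.9, 33.2, 25.4 and 17.9 CPM at 3 d, at 45.2, 36.0, 33.1, 63.2 and 24.7 CPM at 18 h, and at 18.3, 16.7, 19.3, 17.1 and 23.1 CPM in vehicle. All 18 h libraries were above all vehicle libraries, and 3 of the 4 libraries at 3 d were. The mean was 40.4 ± 14.7 CPM at 18 h and 18.9 ± 2.58 CPM in vehicle (SD, n = 5 each), a log2 fold change of 1.11 ± 0.24 (edgeR adjusted p = 0.00134). At 3 d it was 0.45 ± 0.26 (not called), and the 3 d to 18 h difference of -0.65 ± 0.25 was not called. The gene model Gm20388 overlaps its 3′ end on the other strand, and whether the counting used strand is not stated in the notes read here.

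Fdps, which builds farnesyl diphosphate, the last isoprenoid shared by sterols and prenyl groups, fell at 3 d. It was at 25.9, 25.6, 17.8 and 20.7 CPM at 3 d, at 20.9, 36.0, 28.0, 28.8 and 28.8 CPM at 18 h, and at 41.1, 46.7, 27.0, 43.1 and 40.9 CPM in vehicle. All 3 d libraries were below the lowest vehicle library, replicate 3. The log2 fold change was -0.81 ± 0.22 at 3 d (edgeR adjusted p = 0.00994) and -0.47 ± 0.20 at 18 h (not called). These counts are uncertain, because 74% of the 50-base stretches at its 3′ end also occur in other gene models, among them the overlapping Gm43738.

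In the sterol branch, Ebp and Sc5d moved in opposite directions at 3 d. Ebp, the isomerase that shifts the double bond of the sterol ring (chrX:8185329-8193512), was at 62.5, 47.4, 51.7 and 71.6 CPM at 3 d, at 87.0, 89.9, 78.7, 78.3 and 63.9 CPM at 18 h, and at 89.8, 82.2, 98.6, 93.3 and 75.6 CPM in vehicle. The 3 d and vehicle libraries did not overlap. The log2 fold change was -0.59 ± 0.16 at 3 d (edgeR adjusted p = 0.0121) and -0.15 ± 0.15 at 18 h (not called).

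Sc5d, the desaturase that acts on the sterol after Ebp (chr9:42251595-42264256), was at 57.1, 72.1, 71.1 and 64.7 CPM at 3 d, at 58.5, 19.7, 36.1, 58.5 and 44.6 CPM at 18 h, and at 29.9, 32.2, 41.2, 32.6 and 26.2 CPM in vehicle. All 3 d libraries were above all vehicle libraries, while the 18 h libraries spread over both ranges, with replicate 2 the lowest of all 14. The mean was 66.3 ± 6.91 CPM at 3 d and 32.4 ± 5.51 CPM in vehicle (SD, n = 4 and 5), a 2.03-fold difference and a log2 fold change of 1.02 ± 0.24 (edgeR adjusted p = 0.00343). At 18 h the value was 0.43 ± 0.23, not called with all 5 libraries, and 0.73 ± 0.20 (edgeR adjusted p = 0.00915) without replicates 2 and 3, the libraries with high Cd8b1.

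The other tested sterol enzymes were not called in any comparison. Msmo1, which removes sterol methyl groups, was at 2.66 to 12.4 CPM at 3 d, 2.83 to 9.57 CPM at 18 h and 3.31 to 7.63 CPM in vehicle. Nsdhl, the dehydrogenase of the same step, was at 5.69 to 17.8, 8.36 to 15.4 and 10.7 to 18.5 CPM in the same groups. Dhcr7, the reductase that makes cholesterol from 7-dehydrocholesterol, was at 20.6 to 45.5 CPM at 3 d, 22.2 to 35.3 CPM at 18 h and 22.2 to 40.3 CPM in vehicle.

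**Figure D2:**
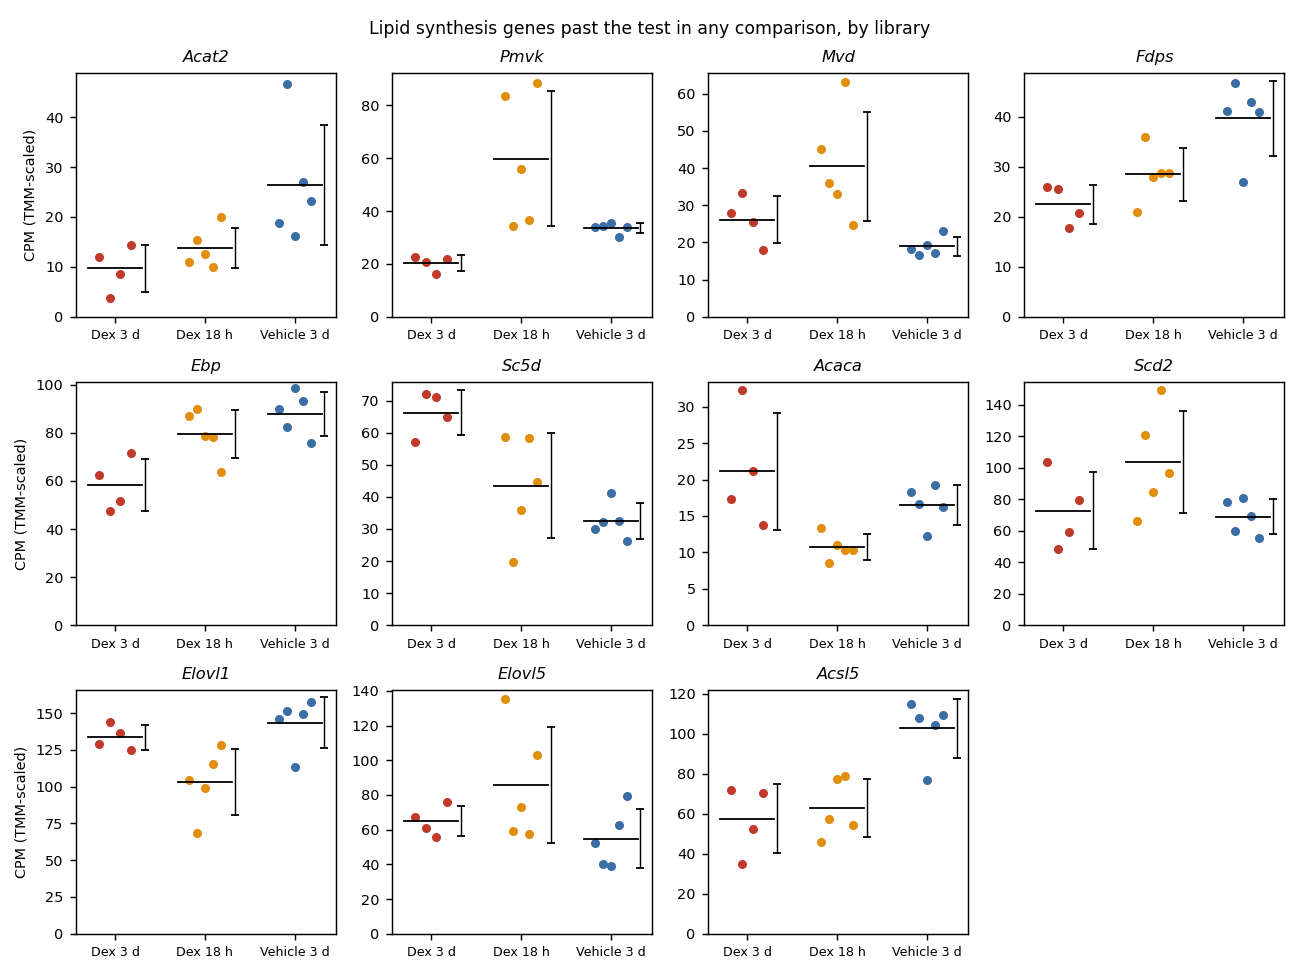
CPM after TMM scaling of the 11 members called in at least 1 comparison, 1 point per library (4 at 3 d, 5 at 18 h, 5 vehicle), with the group mean as a line and a bar of ± 1 SD, on axes that start at 0. The 3 d points lie wholly below vehicle for Acat2, Pmvk, Fdps, Ebp and Acsl5 and wholly above it for Sc5d, and the 18 h points of Pmvk and Elovl5 are widely spread.

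None of the 3 tested genes of SREBP control was called. Srebf1, the gene of SREBP1, was at 167, 227, 202 and 169 CPM at 3 d, at 171, 117, 144, 187 and 102 CPM at 18 h, and at 183, 168, 158, 160 and 171 CPM in vehicle, with log2 fold changes of 0.19 ± 0.17 at 3 d and -0.22 ± 0.16 at 18 h. Srebf2, the gene of SREBP2 and the factor tied most closely to cholesterol synthesis, was at 23.9, 29.4, 28.0 and 15.8 CPM at 3 d, at 14.2, 16.3, 18.4, 20.3 and 17.9 CPM at 18 h, and at 21.3, 21.1, 20.8, 23.7 and 24.7 CPM in vehicle. Every 18 h library of Srebf2 was below every vehicle library, yet the log2 fold change of -0.35 ± 0.21 was not called (edgeR adjusted p = 0.212). Scap was at 83.3 to 90.6 CPM at 3 d, 57.7 to 110 CPM at 18 h and 79.3 to 123 CPM in vehicle. The 3′ end of Srebf1 lies over Rai1 on the other strand. Insig1, a sterol-sensing brake and itself a known SREBP target, was at 0 to 3.99, 0.687 to 2.83 and 2.03 to 4.63 CPM at 3 d, at 18 h and in vehicle, and Stard4, a sterol carrier, at 0.664 to 5.08, 0 to 2.75 and 2.21 to 4.57 CPM, both too low to test.

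Among the fatty acid genes, Acsl5, which joins long-chain fatty acids to coenzyme A, fell at both times. It was at 71.8, 35.1, 52.5 and 70.3 CPM at 3 d, at 46.0, 57.4, 77.3, 78.7 and 54.3 CPM at 18 h, and at 115, 108, 76.8, 104 and 109 CPM in vehicle. Vehicle replicate 3 stood apart below the other 4 vehicle libraries, and without it the 18 h and vehicle ranges would not meet. The log2 fold change was -0.82 ± 0.21 at 3 d (edgeR adjusted p = 0.00678) and -0.70 ± 0.19 at 18 h (edgeR adjusted p = 0.00807). Its gene (chr19:55251938-55297720) meets the other-strand gene Zdhhc6 at the 3′ end.

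Acaca, acetyl-CoA carboxylase and the committed step of fatty acid synthesis, was higher at 3 d than at 18 h. It was at 17.3, 32.2, 21.2 and 13.8 CPM at 3 d, at 13.4, 8.56, 11.0, 10.4 and 10.3 CPM at 18 h, and at 18.3, 16.7, 12.2, 19.3 and 16.2 CPM in vehicle. The 3 d and 18 h libraries did not overlap, but the lowest at 3 d and the highest at 18 h differed by little, and vehicle overlapped both. The difference between 3 d and 18 h was 0.95 ± 0.27 on the log2 scale (edgeR adjusted p = 0.0252), and leaving out any 1 of 3 d replicates 2 and 3 or 18 h replicates 2 and 3 ended the call, with 0.69 (edgeR adjusted p = 0.128) without 3 d replicate 2. Part of its 3′ end, 22.4% of the 50-base stretches, also occurs in the gene model Gm5182.

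Acly makes cytosolic acetyl-CoA from citrate for both branches. It was at 104, 67.3, 72.0 and 97.1 CPM at 3 d, at 99.5, 69.3, 81.7, 355 and 92.0 CPM at 18 h, and at 123, 110, 115, 114 and 112 CPM in vehicle. Replicate 4 at 18 h alone stood far above the rest, and all other dexamethasone libraries were below every vehicle library. Its log2 fold change was -0.43 ± 0.41 at 3 d (not called), and -0.42 ± 0.16 with only the 3 d and vehicle libraries in the fit (edgeR adjusted p = 0.0491). At 18 h it was 0.30 ± 0.38 with all libraries (not called) and -0.42 ± 0.16 without that replicate (edgeR adjusted p = 0.0486).

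Scd2 and Elovl5 rose at 18 h with wide spread. Scd2, the stearoyl-CoA desaturase found in most tissues, was at 104, 48.4, 59.3 and 79.2 CPM at 3 d, at 66.1, 121, 84.6, 149 and 96.8 CPM at 18 h, and at 78.2, 60.0, 80.9, 69.6 and 55.5 CPM in vehicle. Elovl5, an elongase of polyunsaturated fatty acids, was at 67.1, 60.7, 55.9 and 75.8 CPM at 3 d, at 135, 59.1, 72.9, 57.5 and 103 CPM at 18 h, and at 52.3, 40.0, 39.2, 62.9 and 79.4 CPM in vehicle. For both genes some 18 h libraries lay inside the vehicle range. Among the 18 h libraries, Elovl5 was highest in replicates 1, 3 and 5, which also had the highest macrophage sums of that group. At 3 d these sums were 2324 to 8104 CPM, with Elovl5 at 55.9 to 75.8 CPM. The part of macrophage RNA in the 18 h rise of Elovl5 was not tested. The log2 fold changes at 18 h were 0.59 ± 0.22 for Scd2 (edgeR adjusted p = 0.0394) and 0.63 ± 0.23 for Elovl5 (edgeR adjusted p = 0.0405). The Scd2 call was lost in 6 of the 14 fits that each left out 1 library (18 h replicates 2 and 4 and vehicle replicates 1, 2, 4 and 5), with a value of 0.41 (edgeR adjusted p = 0.132) without 18 h replicate 4. It was also lost without 18 h replicates 2 and 3 together (0.61 ± 0.25, edgeR adjusted p = 0.0729). The Elovl5 call was lost in 7 of them (3 d replicate 1, 18 h replicates 1 and 5 and vehicle replicates 1 to 4), with a value of 0.42 (edgeR adjusted p = 0.150) without 18 h replicate 1.

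Elovl1, an elongase of saturated very long chains, fell at 18 h. It was at 129, 144, 136 and 125 CPM at 3 d, at 105, 68.5, 99.3, 115 and 128 CPM at 18 h, and at 146, 151, 113, 150 and 157 CPM in vehicle. The 18 h replicates 4 and 5 overlapped vehicle replicate 3, which was the lowest vehicle library. The log2 fold change was -0.10 ± 0.16 at 3 d (not called) and -0.47 ± 0.15 at 18 h (edgeR adjusted p = 0.0234), and without 18 h replicates 2 and 3 the 18 h value was -0.30 ± 0.16 (not called). Leaving out 18 h replicate 2 or 3 or vehicle replicate 4 or 5 alone also ended the call, with a value of -0.35 (edgeR adjusted p = 0.0667) without 18 h replicate 2. The 3′ end of Elovl1 (chr4:118428093-118432953) overlaps the mitosis gene Cdc20 on the other strand, which fell by 2.85 on the log2 scale at 3 d, where Elovl1 was not called, and stood at -0.74 at 18 h (not called).

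Elovl6 and Fads1 were lower on average at 3 d than in vehicle but were not called. Elovl6, which elongates palmitate, was at 3.32, 0.948, 0.847 and 3.44 CPM at 3 d, at 7.53, 8.56, 4.42, 2.83 and 6.18 CPM at 18 h, and at 4.57, 11.1, 2.54, 3.86 and 7.71 CPM in vehicle. Fads1, a desaturase of polyunsaturated fatty acids, was at 10.6, 2.84, 8.47 and 4.13 CPM at 3 d, at 35.1, 11.1, 11.8, 3.30 and 15.1 CPM at 18 h, and at 11.2, 16.7, 9.66, 14.9 and 8.48 CPM in vehicle. Groups overlapped for both, at levels of a few counts per library for Elovl6. Their log2 fold changes at 3 d were -1.24 ± 0.56 for Elovl6 and -0.84 ± 0.52 for Fads1.

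Among the members too low to test, Scd1 was counted almost only at 3 d. Scd1, the desaturase that SREBP1 and LXR are known to induce in liver, had 7, 3, 1 and 3 counts at 3 d, 0, 0, 1, 0 and 0 counts at 18 h, and no count in any vehicle library. Taking a floor of 3 counts over all vehicle libraries, its pooled level of 2.70 CPM at 3 d was 7.14-fold above that floor. This ratio leaves out the counting error of the 14 counts at 3 d, of which 7 came from 1 library, so it is not a lower bound. Macrophage transcripts were also highest in 3 d replicate 1, the library with the most Scd1 counts, and their part in this value was not tested. Fasn, fatty acid synthase, stayed at 0.847 to 1.99 CPM at 3 d, 0.471 to 6.69 CPM at 18 h and 1.10 to 5.40 CPM in vehicle. Acsl4, an acyl-CoA synthetase for arachidonic acid, was at 5.51 to 11.0, 2.51 to 7.36 and 0.771 to 5.56 CPM at 3 d, at 18 h and in vehicle, with only the 3 d replicate 4 below the highest vehicle library. Ggps1, which makes geranylgeranyl diphosphate, was at 2.66 to 6.78, 2.36 to 5.15 and 0 to 2.76 CPM in the same groups.

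**Figure D3:**
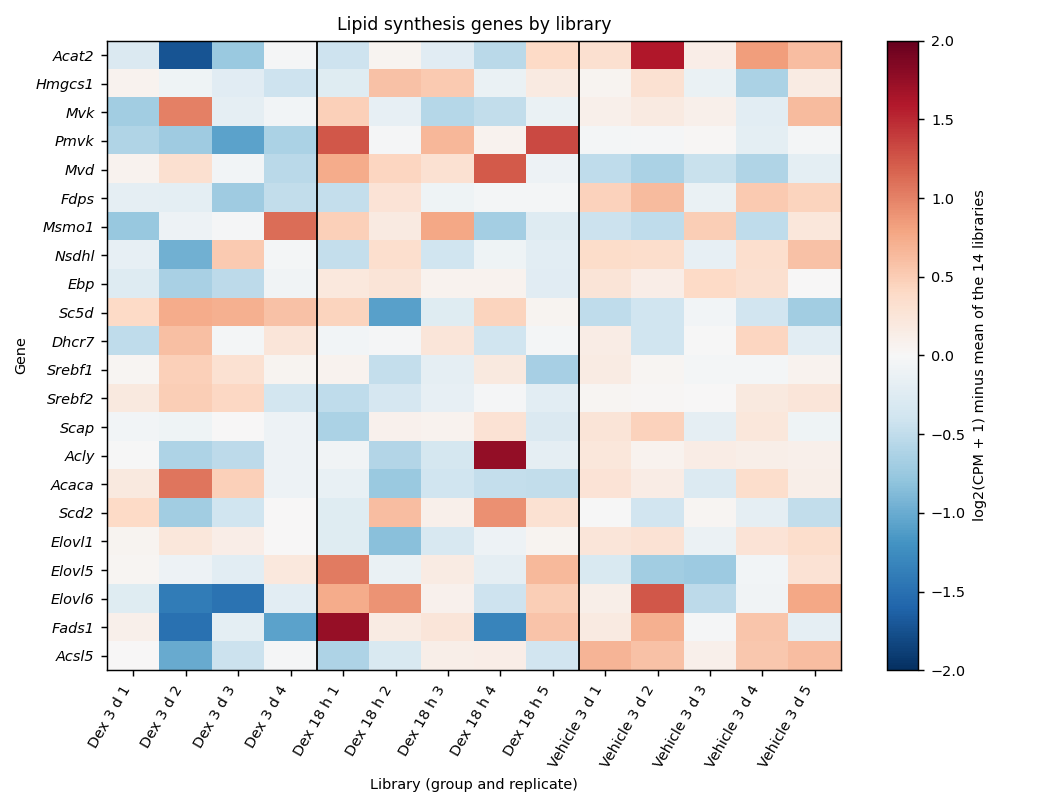
Log2(CPM + 1) of the 22 tested members in each of the 14 libraries, minus the gene's mean over the libraries, with genes in pathway order and lines between the 3 d, 18 h and vehicle libraries. The row of Acat2 is mostly blue in dexamethasone and red in vehicle, that of Sc5d is red at 3 d, and the darkest cell of Acly is 18 h replicate 4 (355 CPM).

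Taken over roles, the 6 tested mevalonate and isoprenoid genes had 0 higher and 2 lower at 3 d, and 2 higher and 1 lower at 18 h. The 5 sterol genes had 1 higher and 1 lower at 3 d and none called at 18 h. The 8 fatty acid genes had 0 higher and 1 lower at 3 d, and 2 higher and 2 lower at 18 h. The 3 SREBP control genes had none called at either time, with all 3 log2 fold changes below 0 at 18 h (-0.35 to -0.21). Of all tested genes, 25.9% were called at 3 d and 34.3% at 18 h. Each role holds only 3 to 8 tested genes, so its counts do not set it apart. In the authors' deposited table, 2 of the 28 listed members were higher and 4 lower at 3 d, 4 higher and 3 lower at 18 h, and 1 higher and 1 lower between the times, at the same threshold. Over all 10303 listed genes, the authors' deposited table called 21.8% at 3 d, 28.2% at 18 h and 10.5% between the times. All 5, 7 and 2 calls made here were among them with the same direction. The authors' further call at 3 d was Scd1, higher by 4.43 on the log2 scale (authors' DESeq2 adjusted p = 0.0141) and too low to test here.

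The calls that fell at 3 d stood beside the fall of the mitosis genes and beside lower thymocyte sums. The part of cell division or of thymocyte RNA in them was not tested. Of the 16 listed DNA replication genes, 14 fell at each time, with sums of 611 to 636 CPM at 3 d, 644 to 775 CPM at 18 h and 1120 to 1681 CPM in vehicle. Without 3 d replicates 1 and 2, which had the highest macrophage sums, the fall of Acat2 was -1.14 ± 0.43 (edgeR adjusted p = 0.0920), that of Ebp -0.52 ± 0.21 (edgeR adjusted p = 0.115) and that of Acsl5 -0.74 ± 0.24 (edgeR adjusted p = 0.0604), none of them called with 2 libraries at 3 d. Sc5d and Fdps kept their calls there, with log2 fold changes of 1.05 ± 0.30 and -1.04 ± 0.29.

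The other genes of sterol synthesis were read beside all tested genes, of which 25.9% were called at 3 d and 34.3% at 18 h. Of 10 tested, 0 rose and 2 fell at 3 d and 0 rose and 1 fell at 18 h, with median log2 fold changes of -0.03 and -0.12. The mouse gene 0610007P14Rik, listed under an older symbol of Erg28, a scaffold of the sterol demethylation complex, fell by 0.78 ± 0.22 at 3 d and by 0.79 ± 0.21 at 18 h (edgeR adjusted p = 0.0143 and 0.00606). Lbr, a lamin receptor that is also a sterol reductase, fell by 0.52 ± 0.18 at 3 d (edgeR adjusted p = 0.0344).

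Of 9 tested genes of SREBP control beyond the members, 2 rose and 1 fell at 3 d and 1 rose and 1 fell at 18 h. The shares called over all tested genes were 25.9% and 34.3%. Rnf145, a ubiquitin ligase that acts on Scap in mouse liver, was at 72.8 to 110 CPM at 3 d, 78.6 to 103 CPM at 18 h and 33.9 to 80.9 CPM in vehicle, with log2 fold changes of 0.74 ± 0.20 and 0.72 ± 0.19 (edgeR adjusted p = 0.00973 and 0.00597). Tbl2 fell at both times (-0.89 ± 0.26 and -0.78 ± 0.24, edgeR adjusted p = 0.0145 and 0.0143).

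Abca1 and Abcg1, which export cholesterol, rose at both times. Of 10 tested LXR and efflux genes, 4 rose and 1 fell at 3 d, and 3 rose and 1 fell at 18 h, with medians of 0.59 and 0.06. Against that stand 25.9% and 34.3% of all tested genes called. The genes that fell, named here beyond the 5 with the smallest adjusted p, were Lpcat3 and Mylip. Lpcat3 fell at 3 d (-0.69 ± 0.23, edgeR adjusted p = 0.0337) and Mylip at 18 h (-0.56 ± 0.20, edgeR adjusted p = 0.0305). Abca1, the exporter of cholesterol to lipid-poor apolipoprotein, was at 41.2, 12.3, 16.9 and 26.9 CPM at 3 d, at 43.5, 23.1, 22.8, 36.8 and 16.5 CPM at 18 h, and at 4.06, 5.56, 12.7, 7.73 and 5.40 CPM in vehicle. Its log2 fold change was 1.75 ± 0.39 at 3 d and 1.96 ± 0.37 at 18 h (edgeR adjusted p = 0.00243 and 0.000373). Abcg1, the partner exporter to lipoprotein particles, was at 74.4, 91.0, 75.4 and 75.1 CPM at 3 d, at 51.0, 78.8, 50.04, 54.7 and 38.5 CPM at 18 h, and at 38.6, 36.7, 34.1, 19.3 and 21.6 CPM in vehicle (1.39 ± 0.22 and 0.86 ± 0.21, edgeR adjusted p = 0.000131 and 0.00401). The 3 d libraries of Abcg1 and the 18 h libraries of Abca1 lay wholly above vehicle.

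Nr1h3, the gene of LXR alpha, was at 12.6, 8.53, 5.93 and 5.51 CPM at 3 d, at 25.1, 13.7, 27.2, 7.54 and 27.5 CPM at 18 h, and at 4.57, 4.45, 3.05, 1.66 and 5.40 CPM in vehicle. It rose by 2.40 ± 0.40 at 18 h (edgeR adjusted p = 0.000114). The macrophage genes summed to 2331, 1437, 1999, 913 and 2310 CPM in the same 18 h libraries. In the 3 d libraries, in the same order as above, they summed to 8104, 5524, 2324 and 3335 CPM. Their part in the 18 h rise of Nr1h3 was not tested. Apoe and Apoc1, which code for apolipoproteins, rose at 3 d, by 2.77 ± 0.46 and 3.86 ± 0.61 (edgeR adjusted p = 0.000740 and 0.000608). Macrophages express these genes and Abca1, and Apoe is itself in the macrophage list, of whose 9 tested genes 3 rose at each time. Csf1r, a defining macrophage receptor, was counted in every library, at 16.1 to 51.2 CPM at 3 d, 8.96 to 28.7 CPM at 18 h and 18.3 to 37.5 CPM in vehicle, and Adgre1 was at 0 in 3 d replicate 3 and vehicle replicate 5. Without 3 d replicates 1 and 2 the 3 d values were 1.58 ± 0.43 for Abca1, 1.32 ± 0.28 for Abcg1, 1.83 ± 0.43 for Apoe and 2.83 ± 0.58 for Apoc1, all still called. Those libraries were left out for their macrophage sums, to which Apoe gave the largest part, 5368 and 3860 CPM. This fit is therefore no separate reading of Apoe. The part of macrophage RNA in these values was not tested.

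**Figure D4:**
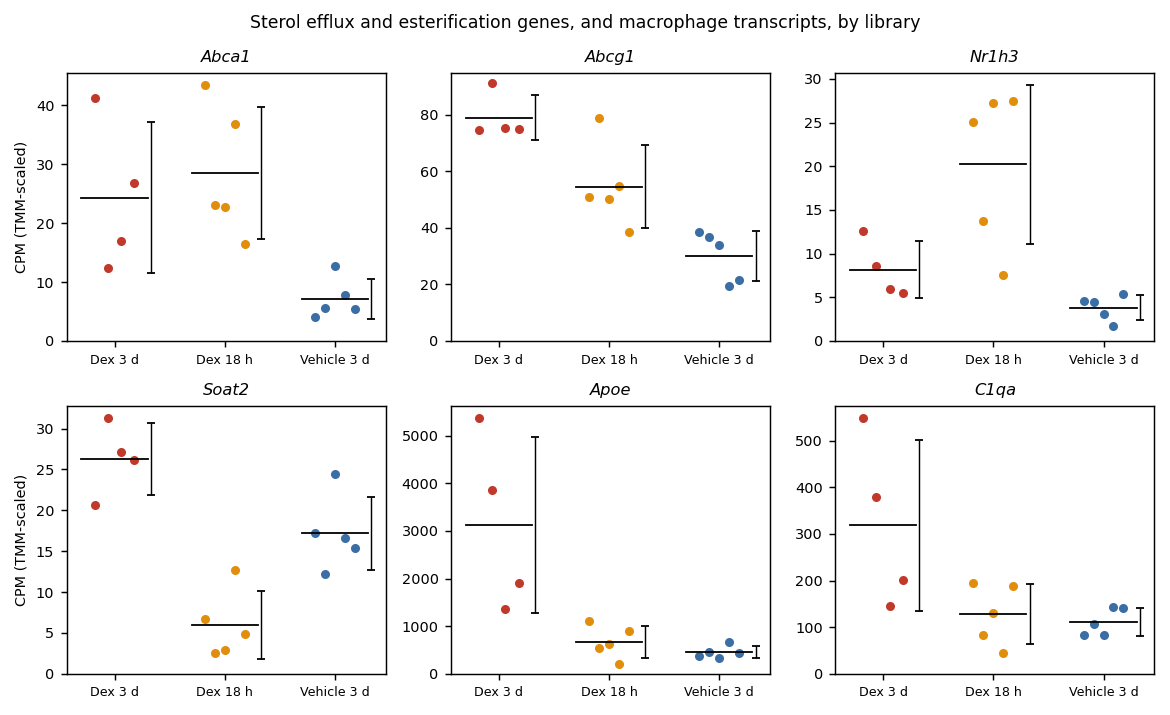
CPM after TMM scaling of 5 sterol export and storage genes and of the macrophage gene C1qa, 1 point per library, with the group mean as a line and a bar of ± 1 SD. Abca1 and Abcg1 are higher in both dexamethasone groups than in vehicle, Nr1h3 is highest and Soat2 lowest at 18 h, and Apoe and C1qa are highest in 3 d replicates 1 and 2.

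Of 13 tested genes of sterol uptake and storage, 0 rose and 1 fell at 3 d, and 4 rose and 3 fell at 18 h. For comparison, 25.9% and 34.3% of all tested genes were called. Soat2, which esterifies cholesterol for storage, was at 20.6, 31.3, 27.1 and 26.2 CPM at 3 d, at 6.69, 2.57, 2.94, 12.7 and 4.81 CPM at 18 h, and at 17.3, 12.2, 24.4, 16.6 and 15.4 CPM in vehicle. It fell by 1.45 ± 0.34 at 18 h (edgeR adjusted p = 0.00229) and was 2.02 ± 0.34 higher at 3 d than at 18 h on the log2 scale (edgeR adjusted p = 0.000415). Npc2, which carries cholesterol out of lysosomes, rose by 1.67 ± 0.37 at 18 h (edgeR adjusted p = 0.00150), and Osbpl9, a lipid transfer protein, by 0.96 ± 0.20 (edgeR adjusted p = 0.000782). Tmem97, a sterol-regulated membrane protein, fell at both times (-1.38 ± 0.44 and -1.42 ± 0.40), at levels of at most 14.2 CPM, and Gramd1a, a cholesterol transporter, fell at 18 h (-0.55 ± 0.15).

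Of 11 other fatty acid synthesis genes, 1 rose and 3 fell at 3 d, and 3 rose and 4 fell at 18 h, with a median log2 fold change of -0.38 at each time. These counts stand beside 25.9% and 34.3% of all tested genes called. Tecr, the last reductase of chain elongation, was at 307 to 404 CPM at 3 d, 340 to 453 CPM at 18 h and 448 to 624 CPM in vehicle (-0.66 ± 0.15 and -0.46 ± 0.14, edgeR adjusted p = 0.00318 and 0.0153). Mlx, the partner of the factor ChREBP, fell at both times (-0.48 ± 0.16 and -0.59 ± 0.15). Slc25a1, which exports citrate from mitochondria to Acly, fell at 18 h (-0.89 ± 0.23), while the fatty acid binding protein gene Fabp5 rose at 18 h (0.77 ± 0.21) and the mitochondrial acetyl-CoA synthetase gene Acss1 rose at both times (0.83 ± 0.29 and 1.07 ± 0.27).

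Of 15 tested glycerolipid genes, 0 were called at 3 d, while 3 rose and 3 fell at 18 h. The same test called 25.9% of all tested genes at 3 d and 34.3% at 18 h. Dgat1, which makes triglyceride, was at 56.5 to 104 CPM at 3 d, 67.6 to 233 CPM at 18 h and 36.2 to 56.7 CPM in vehicle. It rose by 1.66 ± 0.32 at 18 h (edgeR adjusted p = 0.000971). Its level was 233, 121 and 207 CPM in 18 h replicates 1, 3 and 5, which had the highest macrophage sums of that group. In replicates 2 and 4 Dgat1 was at 67.6 and 69.3 CPM. At 3 d, where Dgat1 was at 56.5 to 104 CPM, the macrophage sums were 2324 to 8104 CPM. The part of macrophage RNA in the 18 h rise of Dgat1 was not tested. Agpat2, which makes phosphatidic acid, fell by 1.13 ± 0.25 at 18 h and was 0.98 ± 0.26 higher at 3 d than at 18 h. Agpat4 rose by 1.40 ± 0.43 at 18 h, and Ptdss1 and Pisd, of phosphatidylserine and phosphatidylethanolamine synthesis, fell (-0.78 ± 0.22 and -0.48 ± 0.17).

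Of 21 tested genes of fatty acid oxidation, 1 rose and 4 fell at 3 d, and 1 rose and 5 fell at 18 h. Calls over all tested genes made up 25.9% and 34.3%. Ucp2, a mitochondrial carrier, was at 877 to 1512 CPM at 3 d, 1164 to 1958 CPM at 18 h and 1422 to 3022 CPM in vehicle (-1.18 ± 0.22 and -0.65 ± 0.21). Hadh, a dehydrogenase of the spiral, fell at both times (-0.57 ± 0.18 and -0.65 ± 0.16) and Acadvl, for very long chains, at 3 d (-0.65 ± 0.17). Acaa1a, a peroxisomal thiolase, rose at 3 d (0.68 ± 0.16), and Ech1, an isomerase, fell at 18 h (-0.38 ± 0.13).

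**Figure D5:**
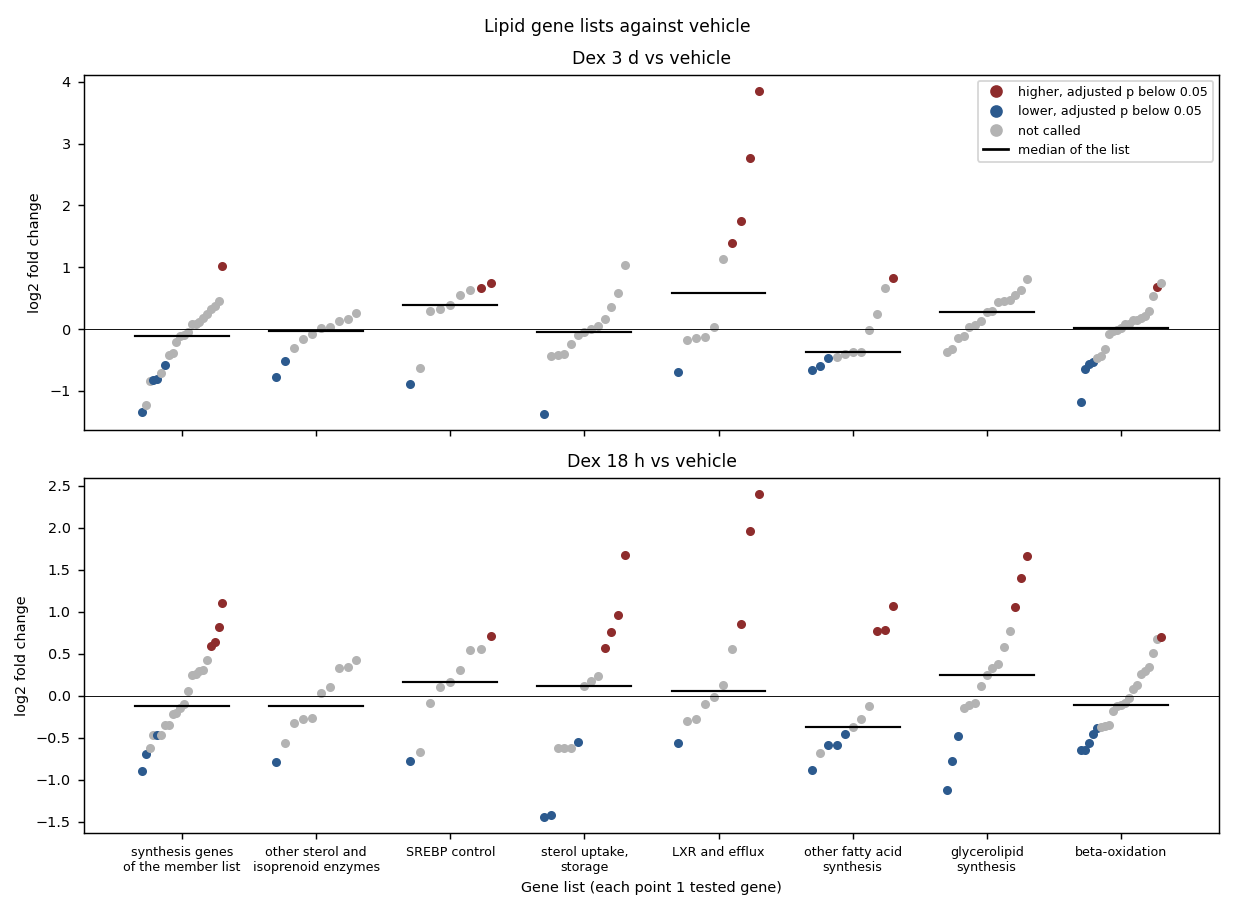
Log2 fold change against vehicle of every tested gene of the 22 members and of 7 other lipid lists, at 3 d (upper) and 18 h (lower), with called genes in red (higher) or blue (lower) and a black line at each list's median. Medians lie within 0.6 of 0 in both panels, and the points furthest above 0 at 3 d are Abca1, Apoe and Apoc1 (1.75, 2.77 and 3.86).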

How the data were processed

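Bulk MARS-seq libraries of sorted thymic NKT cells (4 at 3 d, 5 at 18 h, 5 vehicle) were read from the raw gene counts that the authors deposited. Per the submitters' processing notes, bcl2fastq, cutadapt, STAR 2.5.2b, HTSeq and DESeq2 were used with genome build mm10; the handling of strand and molecular identifiers is not stated there. The authors' deposited log2 fold changes and adjusted p-values were used only for the counts of calls credited to them and for their value of Scd1. Their sign was turned to dexamethasone over vehicle and 3 d over 18 h. A further 28 per-sample columns of normalized values were not used.

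The members and lists were chosen with earlier results of these data known, so no list carries a p of its own. Of 10320 names, 17 turned into dates by spreadsheet software (0.102 to 0.147% of counts) were dropped. Library totals were 1070861 to 1517751 counts at 3 d, 1073583 to 2203273 at 18 h and 977037 to 2078540 in vehicle. After edgeR's filterByExpr, 7965 genes were scaled by TMM and fitted with all 14 libraries in edgeR 4.0.16 (R 4.3.3, robust quasi-likelihood test, Benjamini-Hochberg adjustment, threshold 0.05), which was first tested on simulated data. Levels are CPM (counts scaled to library size) after TMM scaling. No libraries were merged: each of the 26 pairs within a group differed beyond counting noise, with chi-square over its degrees of freedom at 3.28 to 14.6. Genes named beyond the members are, from each list, at most 5 with the smallest adjusted p among those called, unless said otherwise; Tsc22d3, Fkbp5 and Cd8b1 were always named; a few genes of these lists are not reported here. Gene positions are GENCODE M21 on GRCm38. Alternatives were other scalings, DESeq2 1.42.0, limma 3.58.1 voom with quality weights, other filters, 2-group fits, replicate blocks and leaving out libraries. Leaving out 3 d replicates 1 and 2 was chosen after seeing the data.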

Additional observations from a re-analysis of the deposited data

Results flagged for a closer look

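In 13 of 156 sets of 1 gene in 1 group (52 named genes), 1 library stood apart from the others of its group; chance alone would mark about 1 in 20. Among the members, Acly was at 355 CPM in 18 h replicate 4, against 69.3 to 99.5 CPM in the other 18 h libraries. Elovl1 was at 113 CPM in vehicle replicate 3 (others 146 to 157 CPM) and Acsl5 at 76.8 CPM in the same library (others 104 to 115 CPM).

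Among the other lipid genes, 0610007P14Rik was at 22.6 CPM in 18 h replicate 1 (others 54.8 to 66.6 CPM) and at 72.7 CPM in vehicle replicate 3 (others 96.6 to 103 CPM). Lbr was at 39.8 CPM in 18 h replicate 5 (others 58.1 to 62.5 CPM), Ptdss1 at 74.2 CPM in the same library (others 28.7 to 41.1 CPM) and Slc25a1 at 14.6 CPM in 18 h replicate 2 (others 39.0 to 47.7 CPM). At 3 d, Gramd1a was at 1266 CPM in replicate 2 (others 963 to 1011 CPM), Abcg1 at 91.0 CPM in replicate 2 (others 74.4 to 75.4 CPM), Fabp5 at 44.5 CPM in replicate 1 (others 27.6 to 29.6 CPM) and Pisd at 66.1 CPM in replicate 4 (others 83.0 to 86.3 CPM). Tbl2 was at 34.8 CPM in vehicle replicate 4 (others 21.1 to 23.9 CPM).

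The response differed between the times for 9 named genes by the direct comparison of 3 d with 18 h in edgeR. The log2 differences of the members were -1.54 for Pmvk and 0.95 for Acaca. Those of the other genes were 2.02 for Soat2, -0.79 for Osbpl9, -1.27 for Nr1h3, 2.22 for Apoe, 3.72 for Apoc1, 0.98 for Agpat2 and 0.56 for Ech1. Without 3 d replicates 1 and 2, the difference for Apoe was 1.30 (edgeR adjusted p = 0.115) and no longer called. These libraries were left out for macrophage sums that contain Apoe itself. The call of Apoe was lost in 2, that of Agpat2 in 5 and that of Osbpl9 in 2 of 25 other settings, and that of Nr1h3 in 10 of 24, with edgeR adjusted p of at most 0.115 for Apoe, 0.146 for Agpat2, 0.118 for Osbpl9 and 0.113 for Nr1h3. That of Ech1 was lost in 1 of 25.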

How the results depend on the processing

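Each call was refitted under up to 25 other settings, and none of the 14 member calls changed sign in 347 refits, although 43 fell below the threshold. The calls of Fdps and Sc5d at 3 d, of Pmvk, Mvd and Acsl5 at 18 h and of Pmvk between the times held in all 25. Without a filter on low counts, 3 members rose at 3 d (Scd1 and Acsl4 besides Sc5d) and 2 were higher at 3 d than at 18 h. Without 3 d replicates 1 and 2, 1 member fell at 3 d. At 18 h, 5 members fell under voom and 1 without 18 h replicates 2 and 3. The 1 member higher at 3 d than at 18 h, Acaca, became 0 with a mean of at least 20 CPM (where it was not tested), with only the 2 groups compared, and without either pair of libraries. Leaving out 1 library at a time gave 1 member higher and 4 to 5 lower at 3 d, 2 to 4 members higher and 1 to 5 lower at 18 h, and 0 to 3 higher and 1 to 2 lower between the times. Acly at 18 h ranged from -0.42 (without 18 h replicate 4, called lower) to 0.47 over the same fits, against 0.30 with all libraries. Pmvk at 3 d, not called with all libraries, was called under 8 settings. Of the other lipid genes' 48 calls, none changed sign in 1178 refits and 84 refits fell below the threshold, among them 8 of 25 for Acss1 at 3 d and Pisd at 18 h, and 6 of 25 for Mlx and Lbr at 3 d and Ech1 at 18 h. The causes of these shifts were not tested.

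Same-numbered libraries of different groups did not deviate together (correlations -0.21 to 0.15 over 13 pairs, 1 above 0.1), so no pairing by number was seen. Correlations of this kind cannot exclude a shared preparation. With a replicate block by title number or by library number, the count higher at 3 d than at 18 h was 0, with Acaca at an edgeR adjusted p of 0.073 and 0.074, and the 18 h call of Scd2 was lost (0.056 and 0.076). The block by library number also called Pmvk lower at 3 d (-0.82 ± 0.25, edgeR adjusted p = 0.0265). Depth limits the low genes most: 6 of the 28 listed members held too few counts to test, and intervals of counting error are wide where 1 count is worth 0.471 to 1.11 CPM.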
